A study of Mus musculus with 6 samples.

Results

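Fibrillar collagen transcripts divided 6 RNA libraries of sorted mouse cortical cells into 3 collagen-high and 3 collagen-low libraries, and the table of all genes is described here along that division. The level of Col1a1, Col1a2 and Col3a1, which encode the chains of type I and type III collagen, was summed in each library, and the libraries were chosen by this sum. The sum was 3352 in control replicate 1, 1854 in cKO replicate 3 and 1663 in cKO replicate 1, the collagen-high libraries. It was 164 in control replicate 2, 153 in control replicate 3 and 10.3 in cKO replicate 2, the collagen-low libraries. The lowest collagen-high library, cKO replicate 1, was 10.1-fold above the highest collagen-low library, control replicate 2. The spread within a side was 2.02-fold among the collagen-high and 15.9-fold among the collagen-low libraries. Each of the 3 collagens, taken alone, placed the libraries on the same sides. The sides were drawn from measured values, so every gene level compared across them below is a description without a p-value. The 3 sorting collagens are left out of all counts. Values are the deposited CPM, read counts scaled to library depth and rescaled per library by the authors, and are called levels.

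All mice were male, and brains were taken on day 4 after the middle cerebral artery had been occluded for 60 minutes, a model of ischemic stroke. The 3 libraries labelled control were from Padi4flox/flox mice, whose Padi4 alleles carry loxP sites. The 3 labelled cKO were from Slc17a7-cre; Slc32a1-cre; Padi4flox/flox mice, in which Cre is driven by Slc17a7 in glutamatergic and by Slc32a1 in GABAergic neurons. Cortex next to the infarct was dissociated with pronase, and cells positive for Thy1 and negative for ACSA2, CD31, CD45 and O4 were sorted to enrich neurons. The negative gate is directed at surface antigens of astrocytes, endothelium, leukocytes and oligodendrocyte-lineage cells, and no antibody is named for fibroblasts, pericytes or smooth muscle. The collagen-high side held 1 control and 2 cKO libraries, and the collagen-low side 2 control and 1 cKO.

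Fibrillar collagens are made mainly by fibroblasts, which in the brain sit in the meninges and around larger vessels, and by mural cells of the vessel wall. After an ischemic injury these stromal cells multiply and lay down a fibrotic matrix of collagen, fibronectin and other glycoproteins at the lesion, and neurons contribute little fibrillar collagen. Collagen chains are hydroxylated, folded with chaperones, trimmed by proteases outside the cell and cross-linked by lysyl oxidases, while basement membranes are built from type IV collagen, laminins, nidogens and perlecan.

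The targeted gene did not separate the labels. Padi4 had 0 reads in each library labelled control and 0, 3 and 12 reads in cKO replicates 1, 2 and 3, so genotype names below are labels only. Recovered depth ran from 10638387 to 24056755 reads on the collagen-high side and from 10094145 to 18502027 on the collagen-low side. Genes with at least 1 read numbered 17091 to 17891 and 14042 to 16818, so the sides did not overlap in detected genes. Among neuronal genes, Snap25 lay between 384 and 2619 in the 6 libraries, and Thy1, the positive sort gene, between 75.1 and 375. Despite the O4 gate, oligodendrocyte markers summed to more than pan-neuronal markers in each library, at 15020 to 47060 over 23 genes and 3275 to 12711 over 23 genes.

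Across 14793 genes that reached a level of 1 in at least 3 libraries, more genes stood higher than lower in the collagen-high libraries. A gene was counted where all 3 collagen-high libraries lay on the same side of all 3 collagen-low ones and the means of log2(level + 1) differed by at least 1, which is 2-fold. By this count 801 genes (5.41%) were higher and 359 (2.43%) were lower. These shares are the background for each list count below that uses all 6 libraries. The higher genes made up 69.1% of the counted genes. With quantile normalization 540 were higher and 511 lower, a higher share of 51.4%. That scaling moved the median difference over all genes from 0.11 to -0.0039, so the lists below are read against the median of 0.11. Without a minimum difference, 1387 genes (9.38%) lay wholly higher and 974 (6.58%) wholly lower. Differences of at least 4-fold were found for 257 of the higher and 28 of the lower genes. Of the 801, 126 had no collagen-low library at a level of 1. They passed the filter only through the side where they were high, as did 13 of the 359 in the other direction. For such genes the filter fixed the lack of overlap, and any among the list members below stay in the list counts. Their number per list is not reported here. With 2 libraries on a side the condition is easier to meet. Of the 14793 genes, 872, 1176 and 2025 were higher and 360, 536 and 936 lower without control replicates 1, 2 and 3. Without cKO replicates 1, 2 and 3 the higher genes were 947, 870 and 1398 and the lower ones 393, 447 and 1134. List counts without a library are to be read against these counts, not against 5.41% and 2.43%. As a share of all signal, the 801 genes held 3.53% in control replicate 1 and 2.70% and 2.51% in cKO replicates 1 and 3, against 0.77% in control replicate 2, 1.17% in control replicate 3 and 0.52% in cKO replicate 2. The members were counted because of these levels, so the shares only show how much RNA is concerned.

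**Figure D1:**
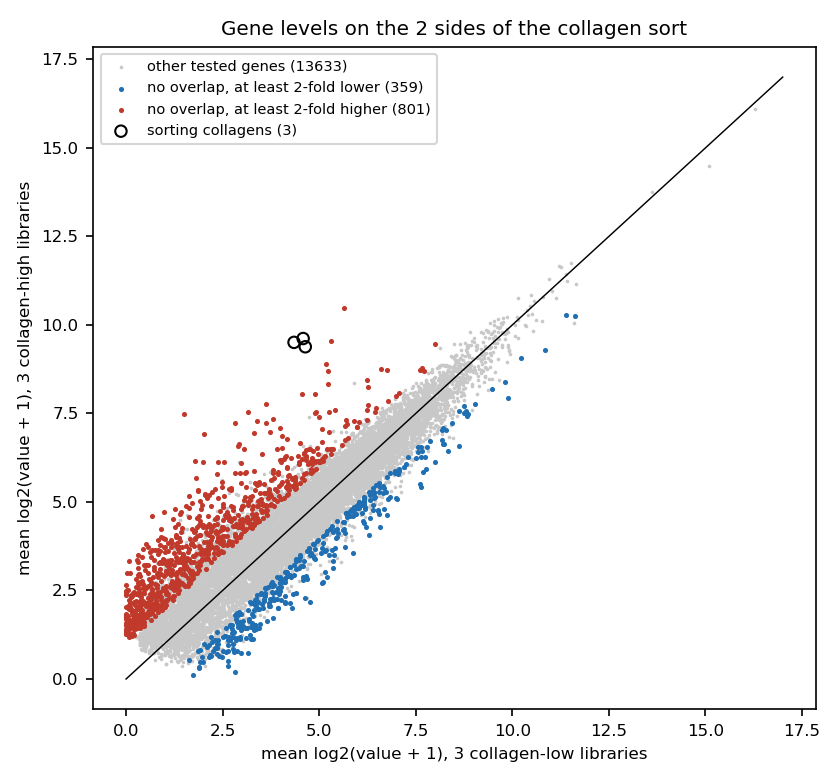
Each point is a gene, with its mean log2(level + 1) over the 3 collagen-low libraries on the horizontal and over the 3 collagen-high libraries on the vertical axis, and the line marks equal means. The 801 higher genes lie above the line, the 359 lower genes below it, and the circles mark the 3 sorting collagens.

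Matrix genes were among those with the widest gap between the sides. Col5a2 encodes a chain of type V collagen, which assembles into the same fibrils as type I. Its level was 278 in control replicate 1 and 134 and 155 in cKO replicates 1 and 3, against 0.809 in control replicate 2, 11.3 in control replicate 3 and 0 in cKO replicate 2. The sides were far apart, at 189 ± 77.8 and 4.03 ± 6.29 (SD, n = 3 each), a difference of 6.003 in mean log2(level + 1), which understates the change of genes near 0. Fn1, which encodes fibronectin, was at 1944 in control replicate 1 and at 1107 and 1325 in cKO replicates 1 and 3. It was at 48.1 and 154 in control replicates 2 and 3 and at 15.9 in cKO replicate 2. That was a 20.1-fold ratio of the side means, 1459 ± 434 and 72.5 ± 72.0 (SD, n = 3 each). The libraries are kept in this order, collagen-high first, in the sentences that follow. Bgn encodes biglycan, a small proteoglycan that binds collagen fibrils, and was at 589, 420 and 439 against 60.2, 56.2 and 12.3. Fstl1, a secreted glycoprotein made by mesenchymal cells, was at 359, 205 and 249.9 against 34.3, 28.4 and 11.4. In these 4 genes control replicate 1 was the highest library and cKO replicate 2 the lowest, as in the collagen sum. Because the samples are bulk, fewer cells of a type and less RNA per cell cannot be told apart here or below.

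Several of the remaining widest gaps belonged to genes that handle collagen or basement membrane. Serpinh1, the collagen chaperone, was at 226, 117 and 126 against 8.68, 16.6 and 10.2. Lox, whose enzyme starts the cross-linking of collagen and elastin, was at 271, 139 and 169.5 against 2.50, 7.61 and 22.6. Within the collagen-low side, cKO replicate 2 was thus the highest library for Lox and the lowest for the collagens. Nid1, which encodes the laminin-binding basement membrane protein nidogen, was at 339, 247 and 214 against 45.8, 41.7 and 12.1. Cyp1b1, a cytochrome P450 gene expressed in vessel-associated cells, was at 205, 134 and 152 against 12.5, 11.7 and 15.3. Serpinf1, which encodes the secreted factor PEDF, was at 89.9, 49.3 and 77.7 against 5.08, 5.67 and 0. For Cyp1b1 the 3 collagen-low libraries lay within a narrow range compared with the gap to the other side. Anpep, the aminopeptidase N gene expressed by pericytes and fibroblasts, was at 33.2, 26.2 and 18.7 against 0.662, 3.17 and 0.101. Mmp9, a gelatinase gene, was at 16.7, 10.5 and 12.8 against 0.294, 1.22 and 0. Fibin, a secreted protein gene, was at 13.5, 8.64 and 9.26 against 0, 0.889 and 0, which is below the floor of 3 reads in 2 of the 3 collagen-low libraries. With no collagen-low library at a level of 1, Fibin passed the filter only through the collagen-high side. Il6 and Cxcl1 complete the 14 and are described with the cytokines.

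**Figure D2:**
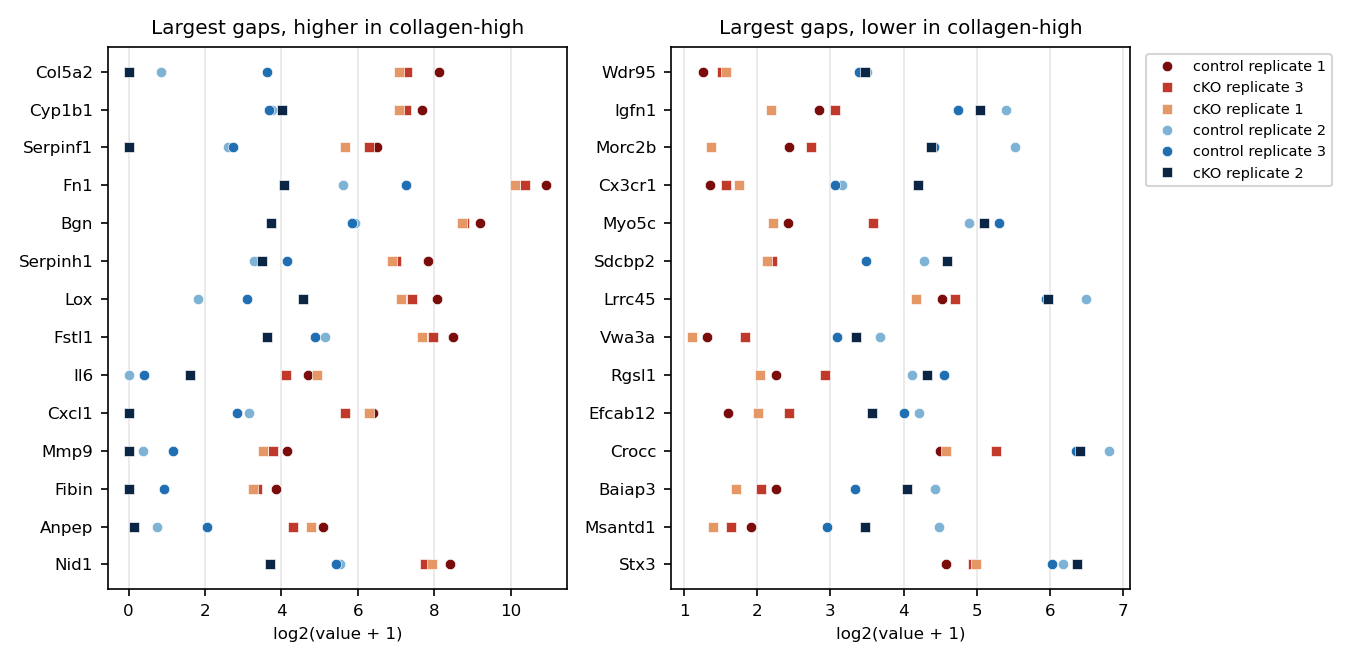
Levels of the 14 genes per direction with the widest gap between the sides, as log2(level + 1) on the horizontal axis, with 1 symbol per library (circles control, squares cKO, red shades collagen-high, blue shades collagen-low). In each row the red and blue symbols are separated, and the collagen-low spread is wide for Col5a2, Fn1 and Lox and narrow for Cyp1b1 and Wdr95.

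In the genome (mm10, GENCODE annotation), Col5a2 lies on the minus strand of chromosome 1 from 45374321 to 45503282, near the sorting gene Col3a1, which lies on the plus strand from 45311538 to 45349706. Fn1 lies on the minus strand of chromosome 1 from 71585520 to 71653200, and an annotated gene on the opposite strand, Apol7d, overlaps it. Annotated genes on the same strand overlap Col5a2 (Gm38211), Anpep (Gm44974) and the sorting genes Col3a1 (Gm47302) and Col1a2 (Gm43921). Counting by strand was not given in the sources used here. Scaled to exonic length, mean levels over the 6 libraries were 65.6 per kilobase for Col1a1, 65.5 for Fn1, 43.1 for Bgn, 10.1 for Col5a2 and 5.05 for Il6. Fn1 was therefore as abundant per length as the sorting collagen Col1a1.

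Collagens outside the sorting set differed by family. Of 9 basement membrane collagen genes, all tested, 6 were higher and 0 lower, with a median difference of 2.15. Col4a1, a chain of the type IV network, was at 512, 407 and 374 against 71.4, 99.2 and 123. Col18a1, whose product anchors basement membranes to stroma, was at 116, 113 and 77.7 against 22.6, 23.2 and 19.3. Among the 8 fibrillar collagens outside the sorting set, Col5a2 alone passed the count, and the list median was 1.05. Col5a1, its partner chain, was at 149.6, 80.4 and 119 against 58.3, 44.1 and 78.9, with no overlap but a log2 difference of 0.93, short of 2-fold. Col24a1, a fibrillar collagen of bone and cortex, went the other way in 2 collagen-low libraries, at 5.07, 2.78 and 5.26 against 40.8, 62.1 and 2.83, with overlap. Without 1 library the fibrillar count was 2 without control replicate 3 or either of cKO replicates 1 and 2, and 4 without cKO replicate 3. Of 24 non-fibrillar collagens, 17 were tested and 2 were higher, with a median of 0.45 that was -0.01 with quantile normalization. Without control replicate 2 the count was 5. Those 2 were Col12a1, a fibril-associated collagen, at 203, 206 and 78.2 against 4.93, 18.4 and 2.12, and Col6a3, at 145, 85.5 and 106 against 22.1, 13.6 and 15.9. The other type VI chains did not share this: Col6a1 was at 51.9, 42.7 and 60.8 against 51.9, 40.9 and 119, and Col6a2 at 24.98, 15.0 and 46.9 against 33.9, 23.0 and 38.8.

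Among 34 genes for collagen-making enzymes and chaperones, 33 were tested, 9 were higher and 1 was lower, with a median of 0.70. Lysyl oxidase family members were among the 9. Loxl2 was at 199, 82.9 and 107 against 0.662, 27.4 and 0.404, and Loxl1 at 42.0, 24.7 and 47.1 against 8.75, 6.06 and 0. Creb3l1, a transcription factor that drives type I collagen genes in bone, was at 29.0, 13.6 and 30.4 against 5.44, 3.67 and 0. Pcolce, which enhances trimming of procollagen ends, was at 37.4, 30.03 and 22.5 against 9.27, 6.22 and 8.79. The prolyl hydroxylase gene P4ha1, which serves all collagens, overlapped between the sides at 69.8, 65.7 and 37.7 against 43.0, 68.7 and 25.9. Adamts3, a procollagen protease gene named after its values were seen, was the lower member, at 13.4, 15.8 and 26.8 against 38.6, 28.3 and 50.4. It was not counted without control replicate 1 or either of cKO replicates 1 and 2.

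Of 33 non-collagen matrix genes, all tested, 15 were higher and 0 lower, with a median of 1.44. Sparc, a collagen-binding protein gene, was at 444, 271 and 274 against 44.0, 73.8 and 14.7. Postn, which encodes periostin, a product of activated fibroblasts, was at 73.1, 29.1 and 21.1 against 12.1, 5.83 and 0. Spp1, which encodes osteopontin, was at 949.6, 565 and 789.5 against 13.2, 166 and 25.7, and Thbs1, which encodes thrombospondin, at 292, 256 and 138 against 3.24, 75.6 and 4.85. For the last 2 genes control replicate 3 stood well above the other collagen-low libraries and still below every collagen-high one. Of 15 laminin and basement membrane glycoprotein genes, 14 were tested, 6 were higher and 0 lower, with a median of 1.46. Lamb1, a laminin chain gene, was at 164, 117 and 130 against 4.12, 25.2 and 29.0, and Hspg2, which encodes perlecan, at 182, 139 and 187 against 28.1, 42.0 and 24.7. Lama3, a chain of epithelial laminins, was at 4.52, 2.64 and 2.40 against 3.68, 5.61 and 18.0.

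Receptors for matrix stood apart in fewer members. Of 26 genes, 25 were tested and 6 were higher, with a median of 0.21, near that of all genes. Itga1, a collagen-binding integrin chain gene, was at 81.6, 81.7 and 30.05 against 3.90, 23.5 and 21.6, and Ddr2, a receptor kinase gene for fibrillar collagen, at 82.6, 54.6 and 38.9 against 35.8, 13.1 and 0.202. Itgb1, the shared integrin beta chain gene, overlapped at 534, 448 and 295 against 169.7, 316 and 156. Among 35 matrix proteases and inhibitors, 34 were tested, 11 were higher and 0 lower, with a median of 0.94. Timp1, an inhibitor of matrix metalloproteinases, was at 27.7, 13.4 and 52.4 against 1.91, 2.50 and 0.404. Mmp14, a membrane-bound collagenase gene, was at 92.6, 70.2 and 60.7 against 7.14, 20.7 and 27.2. Mmp2, which that enzyme activates, was at 39.7, 45.0 and 26.1 against 16.3, 19.8 and 18.8, apart but short of the minimum difference in mean log2(level + 1).

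Growth factor signalling genes that act on stromal cells were counted in similar shares. Of 26 TGF-beta ligands, receptors and targets, 25 were tested, 10 were higher and 0 lower, with a median of 0.87. The receptor gene Tgfbr2 was at 60.7, 34.8 and 31.4 against 4.41, 10.4 and 0.909. The ligand Tgfb1 was at 16.1, 19.2 and 12.4 against 5.15, 8.56 and 12.02, apart but short of the minimum difference and so not counted. The signal transducer Smad3 overlapped at 57.1, 65.9 and 103 against 79.1, 80.4 and 86.4. Of 17 IGF and PDGF genes, 7 were higher and 1 lower, with a median of 0.99. Igf2, a fetal growth factor that meningeal cells keep making in adults, was at 32.1, 51.5 and 22.8 against 10.2, 5.89 and 0. Igfbp7, an IGF-binding protein gene, was at 139, 150.1 and 95.8 against 18.2, 47.6 and 1.52. Pdgfb, the ligand that holds pericytes on vessels, was lower, at 2.67, 3.26 and 9.55 against 13.5, 11.3 and 17.1. Of 23 YAP and SRF targets, genes switched on in stretched or spread cells, 21 were tested and 8 were higher, with a median of 1.008, and 13 were higher without control replicate 3. Ctgf was at 84.3, 61.1 and 64.2 against 0.221, 17.6 and 5.15, and Cyr61 at 165, 140.1 and 111 against 46.8, 68.3 and 73.8.

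**Figure D3:**
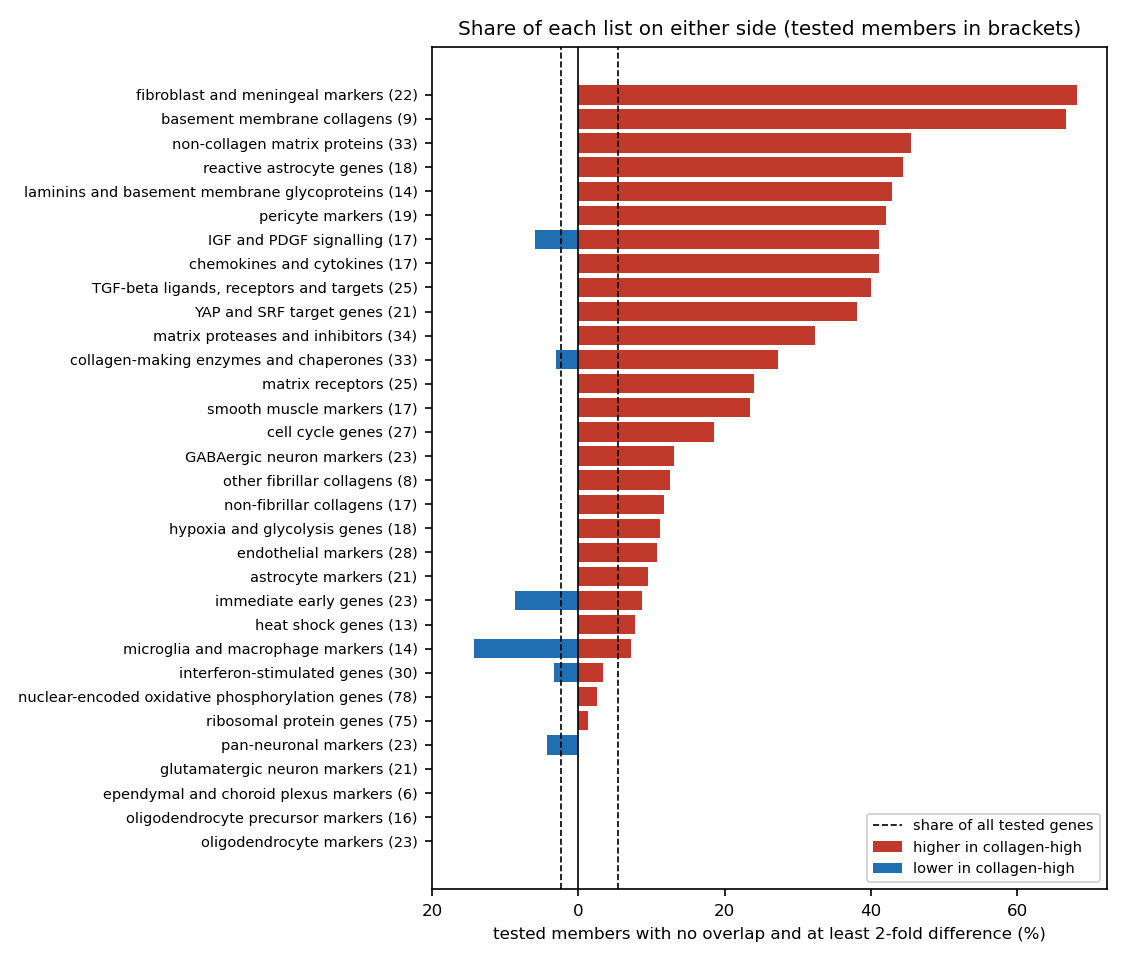
For each list with at least 5 tested members, bars show the percentage of tested members that did not overlap between the sides and differed at least 2-fold, red for higher and blue for lower in the collagen-high libraries, with dashed lines at the shares over all tested genes (5.41% and 2.43%). Fibroblast and meningeal markers (15 of 22) and basement membrane collagens (6 of 9) have the longest red bars, and oligodendrocyte, oligodendrocyte precursor and glutamatergic neuron markers have no bar.

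Cytokine genes gave 2 of the 14 widest gaps. Il6, an inflammatory cytokine gene, was at 25.1, 29.6 and 16.5 against 0, 0.333 and 2.02. Cxcl1, a chemokine gene that draws neutrophils, was at 83.6, 76.9 and 49.7 against 7.94, 6.11 and 0. For Il6 the order within the sides was not that of the collagens, since cKO replicate 1 was the highest library and cKO replicate 2 the highest collagen-low one. For Cxcl1 the order was that of the collagen sum except that cKO replicate 1 stood above cKO replicate 3. The stretches of 250 bases before the RefSeq start of both genes (GRCm38.p6, plus strand) are shown because of the genes with the widest gaps in either direction they alone had a stretch that held an NF-kB-type motif (GGG, any 2 bases, then TTTCC) on either strand. NF-kB is a transcription factor family that drives inflammatory genes. Capitals mark that motif and, at the start of the Il6 stretch, the AP-1-type motif TGANTCA, the letters bound by Fos and Jun proteins.
Il6, chr5:30012864-30013113: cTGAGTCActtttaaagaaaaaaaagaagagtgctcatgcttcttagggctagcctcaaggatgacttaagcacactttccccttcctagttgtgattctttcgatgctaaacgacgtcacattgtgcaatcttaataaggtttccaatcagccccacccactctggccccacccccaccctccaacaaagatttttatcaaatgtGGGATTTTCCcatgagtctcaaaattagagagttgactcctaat
Cxcl1, chr5:90890995-90891244: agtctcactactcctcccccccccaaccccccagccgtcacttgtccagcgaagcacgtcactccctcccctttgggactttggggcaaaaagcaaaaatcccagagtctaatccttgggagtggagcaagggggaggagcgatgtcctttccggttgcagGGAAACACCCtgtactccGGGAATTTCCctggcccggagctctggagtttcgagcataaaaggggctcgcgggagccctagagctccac

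Counted back from the start site, the NF-kB-type match in Il6 spans positions -44 to -35, and those in Cxcl1 span -89 to -80, on the opposite strand, and -71 to -62. A stretch was found for 10 of the 14 named higher genes and 13 of the 14 named lower genes. The NF-kB-type letters were in 378 of 27025 stretches of all genes (1.40%), in 151 of 11067 of the tested genes (1.36%), in 14 of 596 of the higher genes (2.35%) and in 0 of 268 of the lower genes. The AP-1-type letters were in 6.87% of all stretches, 4.19% of those of the tested genes, 6.21% of those of the higher and 6.72% of those of the lower genes. Besides Il6, the named lower genes Sdcbp2 and Rgsl1 held an AP-1-type match. A match is a description of letters, and binding was not measured.

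Of 24 chemokine and cytokine genes, 17 were tested, 7 were higher and 0 lower, with a median of 0.71. Besides Il6 and Cxcl1 these were Ccl2, Ccl7, Cxcl2, Lif and Il11. Ccl2, which attracts monocytes, was at 24.8, 24.8 and 23.3 against 0, 17.2 and 0, so that control replicate 3 was close to the collagen-high libraries. Lif, a cytokine gene of the same receptor family as Il6, was at 18.7, 11.99 and 8.08 against 0, 6.56 and 0. Il33, an alarmin gene of oligodendrocytes and astrocytes, overlapped at 1244, 1583 and 369 against 733, 1552 and 429. Cxcl12, a chemokine gene of meningeal and vessel cells, also overlapped, at 38.9, 34.3 and 33.0 against 13.8, 13.8 and 62.0. When only genes with a level of 1 in all 6 libraries were kept, 0 of the cytokines were counted, since each of the 7 was below 1 in at least 1 collagen-low library.

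Markers of stromal cells were mostly on the collagen-high side. Of 29 fibroblast and meningeal markers, 22 were tested, 15 were higher and 0 lower, with a median of 2.15. Dcn, the proteoglycan decorin, was at 583, 404 and 311 against 56.3, 91.1 and 8.99. Lum, the related proteoglycan lumican, was at 241, 160.2 and 97.8 against 17.3, 61.1 and 0. Aldh1a2, a retinoic acid synthesis gene of the meninges, was at 104, 47.4 and 67.5 against 9.49, 17.9 and 0, and the transcription factor gene Foxd1 was at 9.59, 11.4 and 8.84 against 0, 1.56 and 0.505. The defining gene Pdgfra did not follow, at 532, 579 and 375 against 412, 693 and 362. It is also made by oligodendrocyte precursors, whose own list is given below. Summed over the list, levels were 2151, 1699.6 and 1378 against 655, 1084 and 511, with Pdgfra among them.

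Mural cell genes were higher in part. Of 19 pericyte markers, all tested, 8 were higher and 0 lower, with a median of 1.76. Pdgfrb, the receptor for Pdgfb, was at 217, 180.1 and 159 against 18.8, 50.5 and 52.7, and the channel gene Kcnj8 at 15.7, 20.8 and 11.5 against 6.55, 1.44 and 8.89. Rgs5 overlapped, at 182, 141 and 81.7 against 21.8, 116 and 25.5. Without cKO replicate 3 the pericyte count was 16. The list summed to 1232, 1281 and 668 against 324, 529 and 389. Of 18 smooth muscle markers, 17 were tested and 4 were higher, Tagln, Tpm1, Tpm2 and Pln, with a median of 0.81, which was 0.34 with quantile normalization. The count was 8 without control replicate 3 and 2 without cKO replicate 2. Smooth muscle markers summed to 855, 732 and 652 against 433, 600 and 340.5. Acta2, the smooth muscle actin gene, was at 89.0, 80.7 and 78.8 against 55.3, 57.7 and 31.6, apart but short of 2-fold, and Myh11, the myosin of contractile smooth muscle, overlapped at 114, 104 and 51.8 against 76.0, 109.5 and 44.0.

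**Figure D4:**
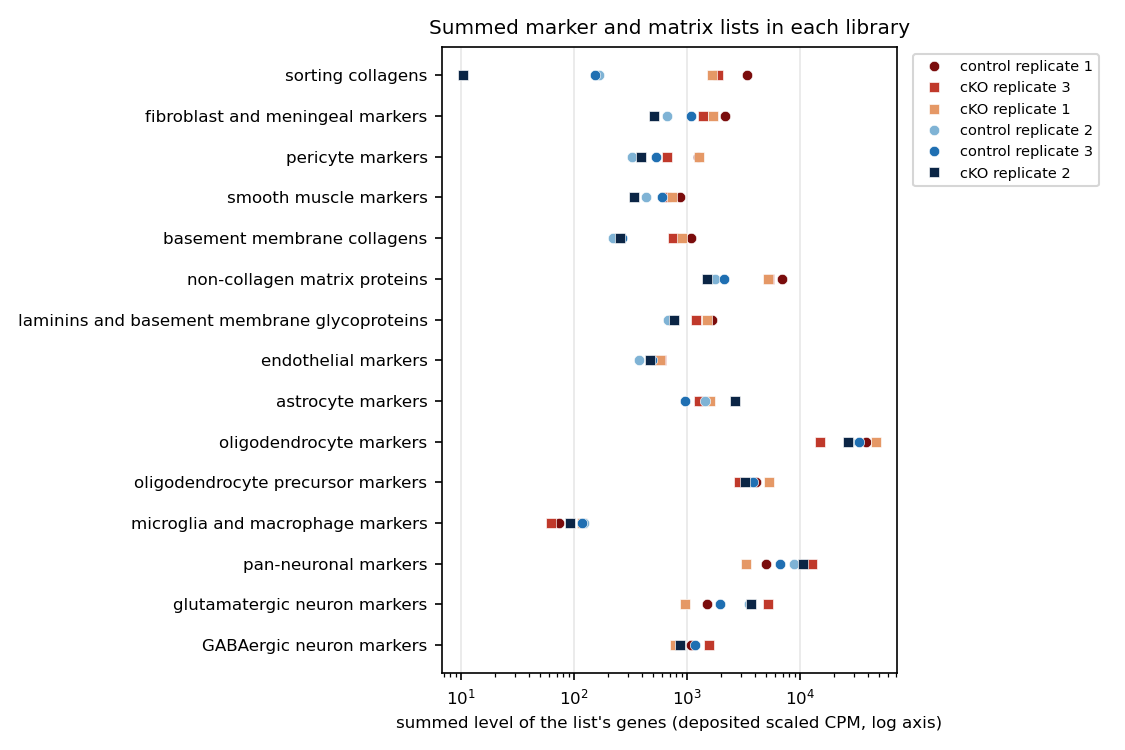
Summed levels of 15 marker and matrix lists in each library on a log axis (circles control, squares cKO, red shades collagen-high, blue shades collagen-low). Red and blue symbols are apart for the sorting collagens, which set the sides, and for the fibroblast, pericyte, smooth muscle, endothelial and matrix lists. They mix for the astrocyte, oligodendrocyte, oligodendrocyte precursor, microglia and neuronal lists.

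Endothelial markers, whose surface antigen CD31 was gated out, were counted in 3 of 28 tested members of 29, Cdh5, Emcn and Eng, and in 5 without control replicate 3, while 3 were lower without control replicate 2. The list median was 0.16, and -0.21 with quantile normalization. Summed over the list, endothelial levels did not overlap, at 515, 570 and 588 against 373, 486 and 470.5. Cdh5, which encodes the junction protein VE-cadherin, was at 98.0, 55.4 and 69.5 against 16.5, 15.8 and 12.7. Pecam1, the CD31 gene, was at 4.79, 7.53 and 2.65 against 4.85, 6.94 and 0.909, and Cldn5, a tight junction gene, at 2.67, 6.24 and 5.01 against 0, 5.67 and 0. Thus Cdh5 was apart while the other defining genes stayed low on both sides.

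Astrocyte markers did not share a direction with the collagens. Of 21 tested, 2 were higher, Gja1 and F3, and 0 lower, with a median of -0.30. Without control replicate 3, 6 were lower. Gja1, the gap junction gene of astrocytes and also of fibroblasts, was at 97.6, 74.1 and 79.2 against 16.7, 22.5 and 34.5. Aqp4, the water channel of astrocyte endfeet, overlapped at 18.0, 49.6 and 9.51 against 19.0, 18.8 and 47.1. Of 19 genes known from reactive astrocytes, 18 were tested and 8 were higher, with a median of 1.38, and without control replicate 3, 3 were lower. The intermediate filament gene Vim, which fibroblasts also express, was at 857, 549.8 and 759 against 180.2, 517 and 175, and Tm4sf1 at 39.8, 22.0 and 47.4 against 0.515, 18.6 and 0. Gfap, the filament gene of astrocytes, overlapped and had its highest level on the collagen-low side, at 51.1, 93.1 and 30.8 against 107, 23.8 and 289.8.

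Summed over their lists, oligodendrocyte and neuronal genes overlapped between the collagen sides. Of 23 oligodendrocyte markers, 0 were counted in either direction, the median was 0.18, and the list summed to 38027, 47060 and 15020 against 27507, 32763 and 26150. Mbp, a myelin protein gene, overlapped at 2471, 3708 and 1307 against 4456, 2015 and 3746. Without cKO replicate 3, 6 were higher, and cKO replicate 3 had the lowest summed level of the list. Of 16 oligodendrocyte precursor markers, 0 were counted, and they summed to 4014, 5232 and 2864 against 3704, 3829 and 3266. Cspg4, which pericytes also express, overlapped at 113, 157 and 118 against 120.0, 120.0 and 106. Pan-neuronal markers summed to 4987, 3275 and 12711 against 8876, 6585 and 10637, so cKO replicate 3 was the highest and cKO replicate 1 the lowest library, both collagen-high. Of 23 members, 1 was lower and 0 higher, with a median of -0.30, while 3 were lower without control replicate 3 and 10 without cKO replicate 3. The lower member was Meg3, a long noncoding RNA gene abundant in neurons, at 1125, 889.5 and 1826 against 3082, 2408 and 4325. Among 21 glutamatergic markers 0 were counted, and 9 were lower without cKO replicate 3. Slc17a7, the glutamatergic Cre driver gene, was at 116, 51.9 and 470.0 against 208, 96.9 and 87.9. Of 24 GABAergic markers, 23 were tested and 3 were higher, Vip, Nxph1 and Calb2, with 6 without control replicate 3. The GABAergic median was 0.59, above the 0.11 of all genes, and ran from 0.081 to 1.03 when 1 library was left out. Vip, a neuropeptide gene of a class of interneurons, was at 128, 35.6 and 89.5 against 19.3, 28.9 and 11.01, while Gad1, the GABA synthesis gene, overlapped at 95.6, 28.5 and 199 against 26.6, 137 and 31.7.

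Blood and myeloid markers were low throughout. Microglia and macrophage markers summed to 73.9, 117 and 61.9 against 121, 116 and 91.0, and 14 of 26 were tested, with 1 higher and 2 lower. The lower ones were Cx3cr1, the fractalkine receptor gene of microglia, at 1.57, 2.35 and 1.98 against 7.94, 7.39 and 17.4, and C1qb, a complement gene, at 0.737, 2.69 and 0.210 against 4.78, 3.61 and 10.8. Tmem119, also a microglial marker, was counted as higher, at 9.13, 2.83 and 3.83 against 0, 0.111 and 0. No collagen-low library reached a level of 1, so Tmem119 passed the filter only through the collagen-high side. Its direction was thus largely set by the filter and is not compared with Cx3cr1. The count was 4 higher without control replicate 3 and 4 lower without cKO replicate 2. No neutrophil or lymphocyte marker passed the filter, and the defining genes S100a8, S100a9, Csf3r, Cd3e, Cd79a and Ms4a1 reached at most 1.84 in any library. The hemoglobin genes Hba-a1 and Hbb-bs had 0 reads in each library.

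Genes lower in the collagen-high libraries were smaller in difference. The 14 with the widest gap had log2 differences from -2.59 to -1.35. Crocc, which encodes rootletin of the ciliary rootlet and centrosome linker, was at 21.7, 22.8 and 37.5 against 111, 81.2 and 84.5. Lrrc45, also a centrosome linker gene, was at 21.9, 17.03 and 24.96 against 89.1, 60.9 and 61.9. Stx3, a membrane fusion syntaxin gene, was at 27.9 ± 4.25 against 72.5 ± 8.80 (SD, n = 3 each), the ratio nearest to 1 of the 14, at 0.385. Myo5c, a class V myosin gene, was at 4.33, 3.65 and 10.9 against 28.8, 38.4 and 33.3, and Igfn1, an immunoglobulin-like and fibronectin-domain gene, at 6.18, 3.55 and 7.37 against 41.3, 25.9 and 32.0. Morc2b had the largest difference, at 4.42, 1.58 and 5.68 against 45.2, 20.3 and 19.8. Wdr95 had the widest gap, at 1.38, 1.97 and 1.85 against 10.3, 9.50 and 10.1. Sdcbp2, Vwa3a, Rgsl1, Efcab12, Baiap3 and Msantd1 had collagen-high means of 1.73 to 4.49 and collagen-low means of 9.49 to 19.2. The annotated span of Cx3cr1 on chromosome 9, from 119901616 to 120069879, overlaps 3 other genes on its own strand, and Msantd1 shares its strand with the overlapping gene Htt, so their reads may not be separate.

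The lower genes differed from the rest in composition. Median GC content of the longest transcript was 54.1% in the lower genes, 48.4% in the higher genes and 49.7% in all tested genes. Split into quartiles by GC content, 0.737% of genes were lower in the quartile poorest in GC and 4.42% in the richest, while the share of higher genes went from 6.42% to 4.04%. The median difference over all genes of a quartile went from 0.28 to -0.13. Genes not annotated as protein-coding were 12.8% of the lower, 4.28% of the higher and 5.56% of all tested genes. Median exonic length was 4486 bases in the lower genes, 3784.5 in the higher and 4446.5 in all tested genes, and the share of higher genes went from 7.04% in the quartile of shortest genes to 3.52% in the quartile of longest. The part of GC content, length and detected genes in the counts was not tested.

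**Figure D5:**
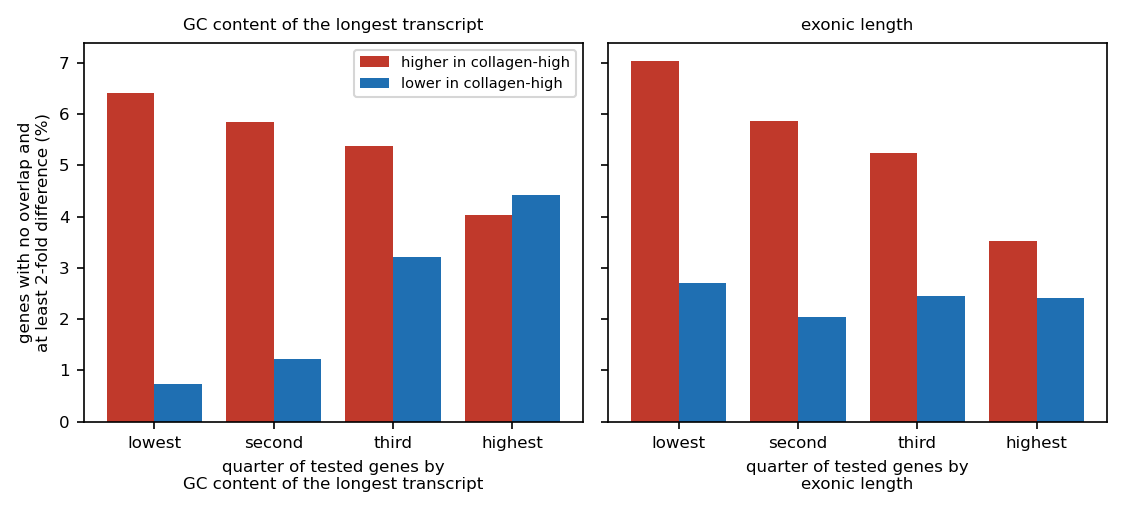
Tested genes were split into quartiles by GC content of the longest transcript (left) and by exonic length (right), and bars give the percentage of each quartile counted as higher (red) or lower (blue) in the collagen-high libraries. The blue bars go from 0.737% to 4.42% with GC content, and the red bars from 7.04% to 3.52% with length.

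Cell cycle genes were high in the collagen-high libraries and in 1 collagen-low library. Mki67, the proliferation marker, was at 200.7, 219.7 and 110.2 against 1.47 in control replicate 2, 156 in control replicate 3 and 48.4 in cKO replicate 2. Top2a, which untangles chromosomes in mitosis, was at 98.5, 89.5 and 36.6 against 0.441, 63.4 and 3.64. Of 27 genes, 26 had a positive difference, the median was 1.77, and 5 were counted as higher, namely Cdk1, Rrm2, Mcm6, Plk1 and Tyms, the last 2 named after their values were seen. Without control replicate 3 the count was 22, and without cKO replicate 3 it was 14. Of the ribosomal protein genes, 74 of 75 tested had a positive difference, with a median of 0.66. Of these 1 was counted as higher, Rpl32, and the count was 40 without control replicate 3, 0 without cKO replicate 2 and 7 without cKO replicate 3. Their summed levels were 9191, 9639 and 8448 against 5224, 10441 and 3989.7, so control replicate 3 was the highest of the 6 libraries.

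The study's own groups cut across the collagen sides. In the comparison of cKO with control, limma called 0 genes higher (0.0%) and 0 genes lower (0.0%) at the adjusted threshold of 0.05, with 50 and 76 at an unadjusted p under 0.05. Those unadjusted counts moved with single libraries, to 131 and 75, 23 and 46, and 18 and 23 without control replicates 1, 2 and 3. They were 443 and 546, 14 and 39, and 70 and 127 without cKO replicates 1, 2 and 3, and 149 and 557 with the collagen side as a covariate, again with 0 genes called by limma. EdgeR on the recovered reads also called 0 genes, with 41 higher and 32 lower at an unadjusted p under 0.05. DESeq2 on the same reads called 1 gene, the interferon-induced gene Ifit3, lower in cKO (DESeq2 adjusted p = 0.0121), while the smallest adjusted p of any gene under the other alternatives ran from 0.606 to 1. Ifit3 belongs to the interferon-stimulated list described below, where 13 of 30 tested members had an unadjusted limma p under 0.05. Over all 14796 genes these were 50 and 76, and 0 list members passed the adjusted threshold. The median label difference of the list was -1.16, lower in cKO. It summed to 705, 714 and 631 in control replicates 1, 2 and 3, and to 504, 270 and 324 in cKO replicates 1, 2 and 3. The list was not tested as a set. By the no-overlap and 2-fold count that was used for the collagen sides, 126 genes (0.852%) were higher and 153 (1.03%) lower in cKO. The median label differences of the 801 and the 359 genes were 0.14 and -0.14, and the sides hold unequal numbers of the labels. Between the labels Lox differed by 2.03 on the log2 scale (SE 1.36, limma adjusted p = 0.9996), higher in cKO. With the collagen side as a covariate the Lox difference was 0.64, and with edgeR on reads it was 0.24. Il6 differed by 1.85 (SE 1.26, limma adjusted p = 0.9996) and by 0.61 with the covariate. Fn1 differed by 0.25 (SE 1.64) and Col5a2 by 0.59 (SE 2.03), with standard errors larger than the differences. The direction within a label is fixed by the sides for each counted gene. Counted genes were 15 of 22 tested fibroblast members and 6 of 9 basement membrane collagens, so the medians of these 2 lists had to be positive. The fibroblast list had a median difference of 2.25 between control replicate 1 and the other controls. It was 2.23 between cKO replicates 1 and 3 and cKO replicate 2. Over all tested genes these medians were 0.045 and 0.15. For basement membrane collagens these medians were 2.27 and 2.22, and for pericyte markers 1.82 and 1.27.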

How the data were processed

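RNA was measured in 6 libraries, 3 per label. The Ovation SoLo kit was used to prepare the libraries, per the labels' protocols. Trimmomatic, HISAT2, featureCounts, edgeR and the mm10 build are named in the submitters' processing notes, without versions or settings. Strand setting and counting annotation: not given in the sources used here. The authors deposited 1 table of 24419 genes as a normalized signal, CPM rescaled per library, with column totals from 961962 to 1027958. Unscaled CPM had been assumed when the test was chosen, and limma on log2 values fits both. Values were whole multiples of 1 step per library, and 100% of the recovered reads were within 0.001 of a whole number. Depth ran from 10094145 to 24056755 reads, and 3 reads, taken as the floor, equal 0.126 to 0.303 units. Floors cover counting error only, since reads may be copies of fewer molecules.

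Libraries were sorted by the sum of Col1a1, Col1a2 and Col3a1. Genes reaching a value of 1 in 3 or more libraries were kept, and differences are of mean log2(value + 1). Collagen sides were described without tests. Labels were compared over the kept genes with limma 3.58.1 (mean-variance trend, Benjamini-Hochberg adjustment) in R 4.3.3. No label says whether each library was made from its own animal, so the p-values reflect only how far these samples spread, and that spread may be technical. Alternatives on the recovered reads were edgeR 4.0.16, which called 0 genes, and DESeq2 1.42.0, beside other pseudocounts, filters and scalings, covariates, a replicate block and leaving out each library. The limma fit and the count of genes without overlap were each run on simulated reads with known changes.

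The division, the gene lists and the rules were chosen with earlier results of these data known. Named were the 14 genes per direction with the widest gap between the sides and a mean of at least 5, leaving out the sorting collagens and predicted genes without a symbol, the 3 defining genes and up to 6 further members with the largest difference in each list described, the Padi genes and the sort and Cre driver genes. Some genes that this rule names are not reported here. Annotation was GENCODE on GRCm38 (mm10), and promoter stretches were from RefSeq on GRCm38.p6. Coordinates count from 1.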

Additional observations from a re-analysis of the deposited data

How the results depend on the processing

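For the 28 genes with the widest gaps, 384 values under the alternatives were within the spread between libraries and 29 outside it, and 0 reversed, which for leaving out a library is fixed by how they were chosen. Of the 6 tested among the targeted, sort and Cre driver genes, 0 were counted and 5 changed sign under at least 1 alternative, such as Thy1 from -0.021 to 0.45 without cKO replicate 1 and Slc17a7 from 0.23 to -0.63 without cKO replicate 3. Of the list medians, 462 stayed within the spread and 48 moved. With a pseudocount of 5 the counts were 384 higher and 176 lower. A level of at least 1 in all 6 libraries, which by construction drops genes near 0 on a side, gave 301 higher and 288 lower, or 51.1% higher. Without a minimum difference they were 1387 and 974, and with a gap of at least 1 on the log2 scale 186 and 20. The cause of these moves was otherwise not tested. Leaving out 1 library gave 870 to 2025 higher and 360 to 1134 lower. Reads thinned to the shallowest library, an alternative chosen after seeing the data, gave 798 and 357. List counts of lower members that were 0 became at most 3 without 1 library, apart from 6 astrocyte and 9 glutamatergic markers. Sorting by each collagen alone changed no count. In the comparison of the labels DESeq2 called 1 gene, Ifit3, lower in cKO, with 97 higher and 78 lower at an unadjusted p under 0.05. A replicate block called 0 genes higher and 0 lower, with 110 and 197 at an unadjusted p under 0.05. Deviations of the pairs numbered 1, 2 and 3 correlated at 0.49, 0.30 and 0.034. The third is not above 0.1, so the libraries were taken to share only a number. Each correlated best with its own number, a pattern seen in the data and not given by the design. For control replicate 3 this rested on 0.034 with cKO replicate 3 against 0.028 with cKO replicate 2. Both libraries numbered 1 were collagen-high and both numbered 2 were collagen-low, while those numbered 3 were divided. For numbers 1 and 2, replicate number and collagen side cannot be told apart. Depth limits levels below the floor of 3 reads, where no fold is given.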

Other observations

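Groups tied to neuronal activity and to interferon did not follow the collagen sort as a whole. Of 24 immediate early genes, 23 were tested, 2 were higher in the collagen-high libraries, Ier3 and Klf2, and 2 were lower, Arc and Npas4. Arc, an activity-induced gene of excitatory synapses, was at 112 in control replicate 1, 120 in cKO replicate 1 and 167 in cKO replicate 3, against 384 in control replicate 2, 292 in control replicate 3 and 220 in cKO replicate 2. Npas4, a transcription factor gene induced by calcium entry in neurons, was in this order at 32.2, 15.0 and 70.5 against 158, 94.5 and 138. Fos overlapped, at 1016, 1459 and 465 against 644, 613 and 494. The higher count was 4 without control replicate 3 and 8 without cKO replicate 3, and the lower count was 1 without control replicate 2. Of 31 interferon-stimulated genes, 30 were tested, 1 was higher and 1 lower, with a median of 0.14 that was -0.13 with quantile normalization. Ifitm3, also made by stromal and vessel cells, was higher at 56.7, 40.1 and 44.6 against 4.78, 16.6 and 11.3, and Irf7 was lower at 9.13, 4.70 and 1.81 against 9.27, 10.6 and 21.0. The interferon counts were 3 and 4 higher without control replicates 2 and 3, and 4 and 0 lower without cKO replicates 2 and 3. Of 20 hypoxia and glycolysis genes, 18 were tested and 2 were higher, Ldha and Hk2, or 1 without cKO replicate 2. Hk2, a hexokinase gene, was at 58.9, 31.9 and 22.0 against 2.13, 11.5 and 4.04.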
